A study of Mus musculus with 18 samples.

Results

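The liver transcriptome of diabetic mice that received gut microbiota from AOS-dosed donors (A10-FMT) was compared with that of diabetic mice that received none (STZ). The comparison used every gene with at least 1 RPKM (reads per kilobase of transcript, scaled to the mapped reads of the library) in at least 3 of these 6 libraries, which kept 10345 of the 19057 gene symbols measured, in 6 of the 18 liver libraries of the series. All mice were males of the outbred ICR line, 10 weeks old according to the labels. STZ mice were made diabetic with a single injection of streptozotocin, a toxin of insulin-producing beta cells. A10-FMT mice had the same injection and were then given, by mouth, small intestinal microbiota from donors dosed with alginate oligosaccharide (AOS) at 10 mg/kg. Con-FMT mice had the injection and microbiota of undosed donors, and Con mice had a regular diet and saline. The transplanted material was gathered from a group of donors, so that recipients of a group do not stand for separate donors, and p-values measured the spread between the 3 mice of each group.

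The liver takes up nutrients and microbial products from the gut through the portal vein. With little insulin it makes more glucose and ketone bodies, and it responds less to growth hormone, whose pulses in males act through the receptor GHR, the kinase JAK2 and the transcription factor STAT5B to maintain male-biased genes such as the major urinary proteins (Mup genes). Glucocorticoids, leptin, fatty acids sensed by PPAR-alpha, and interferon signalling also set the level of large groups of liver genes.

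Libraries of the comparison were alike in summed RPKM, which ran from 631126 to 684659 in STZ and from 675600 to 712798 in A10-FMT, and their relative depth, recovered from the steps of low genes, ran from 0.966 to 1.004. They were less alike in composition. The 10 highest genes held 19.1%, 19% and 28.5% of summed RPKM in STZ mice 1, 2 and 3, and 23.8%, 25.8% and 21.9% in A10-FMT mice 1, 2 and 3. Shares of genes above or below STZ are from the deposited values, without rescaling for this. Hepatocyte markers were abundant in all 6 livers, with a summed level of 42190 to 58458 RPKM in STZ and of 52561 to 61059 RPKM in A10-FMT. STZ mouse 3 stood apart from its group: its Euclidean distance over log2(RPKM + 1) was 64.6 and 62.5 to the other STZ mice, which lay 37.8 from each other, but 37.2 to 39.8 to the A10-FMT mice, which lay 26.8 to 30.7 from each other. The group of this mouse rests on its label, which no value here could check, so each STZ value below includes a library whose label is open to doubt. The median SD of a gene was 0.19 (log2) among the STZ mice and 0.108 among the A10-FMT mice. A second library, Con mouse 3, does not enter the difference but does enter the estimate of spread, which was shared by the 12 libraries of the 4 groups. It lay between Con mice 1 and 2 at 61.6% of the genes with at least 5 RPKM, where 33.3% would follow from position alone and the other 11 libraries ranged from 16.6% to 48.9%. At the 896 genes where Con mice 1 and 2 were over 0.4 (log2) apart, Con mouse 3 was at a median of 0.559 of the way from mouse 1 to mouse 2, with an interquartile range of 0.224. Whether Con mouse 3 is independent of the other Con mice was not tested. Counts of calls, and those of the main gene lists, are therefore also given without STZ mouse 3, and where stated without Con mouse 3 in addition. STZ mouse 3 was singled out for its nearness to the A10-FMT mice in these same values. Leaving it out was therefore bound to raise the count of calls. Counts without it show dependence on that mouse and are not further support for a difference.

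A10-FMT livers differed from STZ livers at 24 genes (0.232% of those tested) at an adjusted p under 0.05 (limma on log2(RPKM + 1), Benjamini-Hochberg over 10345 genes). Of these, 7 were higher (0.0677%) and 17 lower (0.164%). The lower genes included the leptin receptor, the growth hormone effector Stat5b, the glucocorticoid-responsive transcription factors Klf9 and Zbtb16, and the BMP target Id1. The higher genes included Csad of taurine synthesis, the immunoproteasome subunit Psmb9 and the stress ligand Raet1e. Absolute log2 differences of the 24 ran from 0.44 to 3.09, 10 of them were at least 1 (0.0967%), and adjusted p ran from 0.0267 to 0.0471. None met the authors' limits of an FDR of 0.001 with a log2 change of 1, set here on the limma values. The authors applied these limits to another test, DEGseq, which was not run here, so this count does not repeat theirs. With median-ratio scaling 44 genes were higher and 61 lower, so that 41.9% of calls were higher against 29.2% as deposited, and with quantile normalization 22 were higher and 33 lower (40%). The count of unadjusted p-values below 0.05 was 2163 (20.9%).

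Most genes differed little. At 9511 genes (91.9%) the absolute log2 difference was under 0.5, and at 192 genes it was at least 1, 95 higher and 97 lower. The 3 A10-FMT mice lay above all 3 STZ mice at 771 genes (7.45%) and below them at 1457 genes (14.1%). The median log2 difference over all genes was −0.06, and 0.00 after median-ratio scaling.

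The number of genes called depended on single mice. Without STZ mouse 3 there were 1346 genes (13%), 398 higher (3.85%) and 948 lower (9.16%), and all 24 genes were among them. Without STZ mouse 1 there were 138 and without STZ mouse 2 none, at 1205 unadjusted. Leaving out A10-FMT mouse 1, 2 or 3 left 2, 0 and 0 genes, at 1702, 1411 and 1785 unadjusted. Without Con mouse 3 none was called (1875 unadjusted), and the 24 genes had adjusted p of 0.0537 to 0.0959. Leaving out Con mouse 3 together with STZ mouse 3 gave 890 genes (8.6%), 279 higher (2.7%) and 611 lower (5.91%), again with all 24 among them, at adjusted p of 0.00261 to 0.0235. List counts below that leave out both mice stand against these shares of 2.7% and 5.91%. Direction and non-overlap of the 24 genes do not rest on the Con mice, whereas their place under the threshold does. The 24 were selected with STZ mouse 3 counted as STZ. Their non-overlap, and the place of that mouse on the STZ side, thus follow largely from the selection and are not further evidence.

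**Figure D1:**
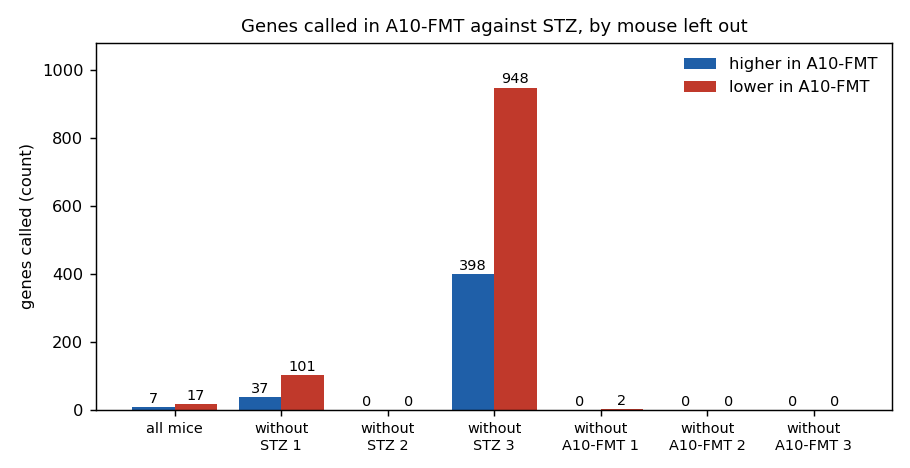
Number of genes called in A10-FMT against STZ liver (limma, adjusted p under 0.05, 10345 genes tested), with all mice and with each STZ or A10-FMT mouse left out in turn. Bars give counts of genes higher (blue) and lower (red) in A10-FMT. Leaving out STZ mouse 3 raises the count from 24 to 1346, and leaving out STZ mouse 2 or A10-FMT mouse 2 or 3 brings it to 0.

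Lepr (chr4:101717404-101815352, plus strand), which encodes the leptin receptor, was at 46.3, 42.1 and 21.7 RPKM in the STZ mice and at 2.99, 2.44 and 4.45 in the A10-FMT mice. It fell by 3.09 ± 0.46 (log2, SE; limma adjusted p = 0.0279), the largest absolute difference of the 24, and even STZ mouse 3 lay well above every A10-FMT mouse. Con livers held at most 0.17 RPKM, so A10-FMT livers remained above Con livers. Leprot, whose transcript starts at the same locus, was at 6.49 to 11.8 RPKM in STZ and 6.65 to 7.5 in A10-FMT (adjusted p = 0.332). Stat5b (chr11:100780731-100850724, minus strand), the transcription factor that growth hormone activates, was at 14.6, 19.5 and 16.2 RPKM in STZ and at 10.4, 10.4 and 8.91 in A10-FMT, a fall of 0.70 ± 0.11 (limma adjusted p = 0.0346). Here the groups were apart, and the A10-FMT mice also lay below the Con mice, which were at 13 to 14 RPKM.

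Klf9 (chr19:23141226-23168134, plus strand) and Zbtb16 (chr9:48654297-48836222, minus strand) encode zinc finger transcription factors that glucocorticoids induce in many tissues. Klf9 was at 25.9, 32.6 and 24.7 RPKM in STZ and at 15.5, 15.9 and 14.3 in A10-FMT, a fall of 0.82 ± 0.11 (limma adjusted p = 0.0267) to the Con level of 14.5 to 16. Zbtb16 was at 3.25, 6.65 and 4.21 RPKM in STZ and at 1.14, 0.82 and 1.41 in A10-FMT, a fall of 1.39 ± 0.20 (adjusted p = 0.0279). In both genes every A10-FMT mouse was below every STZ mouse, STZ mouse 3 included. Id1 (chr2:152736251-152737410, plus strand), which restrains basic helix-loop-helix factors and is a direct target of BMP-SMAD signalling, was at 17.2, 14 and 11.2 RPKM in STZ and at 4.92, 4.86 and 3.66 in A10-FMT. It fell by 1.46 ± 0.18 (adjusted p = 0.0267), to a level close to the 3.77 to 4.06 RPKM of Con. Irf2bp2, a corepressor that binds interferon regulatory factor 2, Klf12, a transcriptional repressor, and Spred1, an inhibitor of Ras-MAPK signalling, fell by 0.96, 0.63 and 0.59.

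Eif4ebp3 encodes a member of the 4E-BP family, which hold back cap-dependent translation. It was at 114, 155 and 107 RPKM in STZ and at 24.9, 34.4 and 50.2 in A10-FMT, a fall of 1.79 ± 0.28 (limma adjusted p = 0.0279). All A10-FMT mice were at less than the lowest STZ mouse, and within or above the Con range of 18.4 to 25.8. The remaining lower genes were Tmem98, a transmembrane protein gene that fell by 1.44 ± 0.24 (26.1, 22.1 and 15 RPKM in STZ against 7.62, 7.86 and 5.6), D230025D16Rik, Sash1, Rnf39, Sntb2, Mreg, Tent5c and Dennd4a. Their falls ran from 0.56 for Dennd4a, an activator of Rab GTPases, to 0.76 for D230025D16Rik. Tent5c encodes a poly(A) polymerase, Sntb2 a syntrophin adaptor and Sash1 a scaffold protein.

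Of the 7 genes that rose, Csad (chr15:102176999-102204724, minus strand) had the highest log2 difference and SE. This decarboxylase of taurine synthesis was at 14.6, 14.4 and 14.8 RPKM in STZ and at 57.9, 61.1 and 48.9 in A10-FMT, a rise of 1.86 ± 0.32 (log2; limma adjusted p = 0.0464). STZ mouse 3 was at the level of its group here, and Con livers were higher still at 129 to 148 RPKM. Csad was the only gene called when the 6 libraries alone were fitted, with an adjusted p of 0.00597, and over 16 alternatives its adjusted p ran up to 0.179. Cib3, a gene of the calcium and integrin-binding family, was at 0.69, 0.14 and 0.13 RPKM in STZ and at 2.64, 3.52 and 1.79 in A10-FMT (1.47 ± 0.22, adjusted p = 0.0279), so that it passed the filter only through the A10-FMT mice. Meiob, known for a role in meiotic recombination, rose by 1.01, 2200002D01Rik by 0.74, and Cetn2, a centriole component, by 0.44.

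Psmb9 (chr17:34181987-34187764, minus strand) and Raet1e were the called genes of antigen presentation and immune recognition. Psmb9, a catalytic subunit of the immunoproteasome that trims peptides for MHC class I, was at 13.8, 9.8 and 15.6 RPKM in STZ and at 32.8, 27.4 and 24.9 in A10-FMT, a rise of 1.07 ± 0.18 (limma adjusted p = 0.0464). Raet1e, a ligand of the NKG2D receptor of NK cells, was at 1.28, 2.69 and 2.06 RPKM in STZ and at 6.95, 18 and 6 in A10-FMT, a rise of 1.79 ± 0.31 (adjusted p = 0.0471). The groups were apart at both genes, with A10-FMT mouse 2 far above the others at Raet1e. Some of these genes share exon sequence with neighbours, which the deposited values could have split differently. Psmb9 shares 212 exon bases with Tap1 on the opposite strand, whose own log2 difference was 0.16 (adjusted p = 0.606), Csad shares 278 with Zfp740, D230025D16Rik 416 with B3gnt9, 2200002D01Rik 361 with Yif1b and Irf2bp2 1039 with Gm26759. Raet1e shares 363 bases with Raet1d, and Eif4ebp3 501 with a readthrough locus on its own strand, so the level of each is uncertain.

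**Figure D2:**
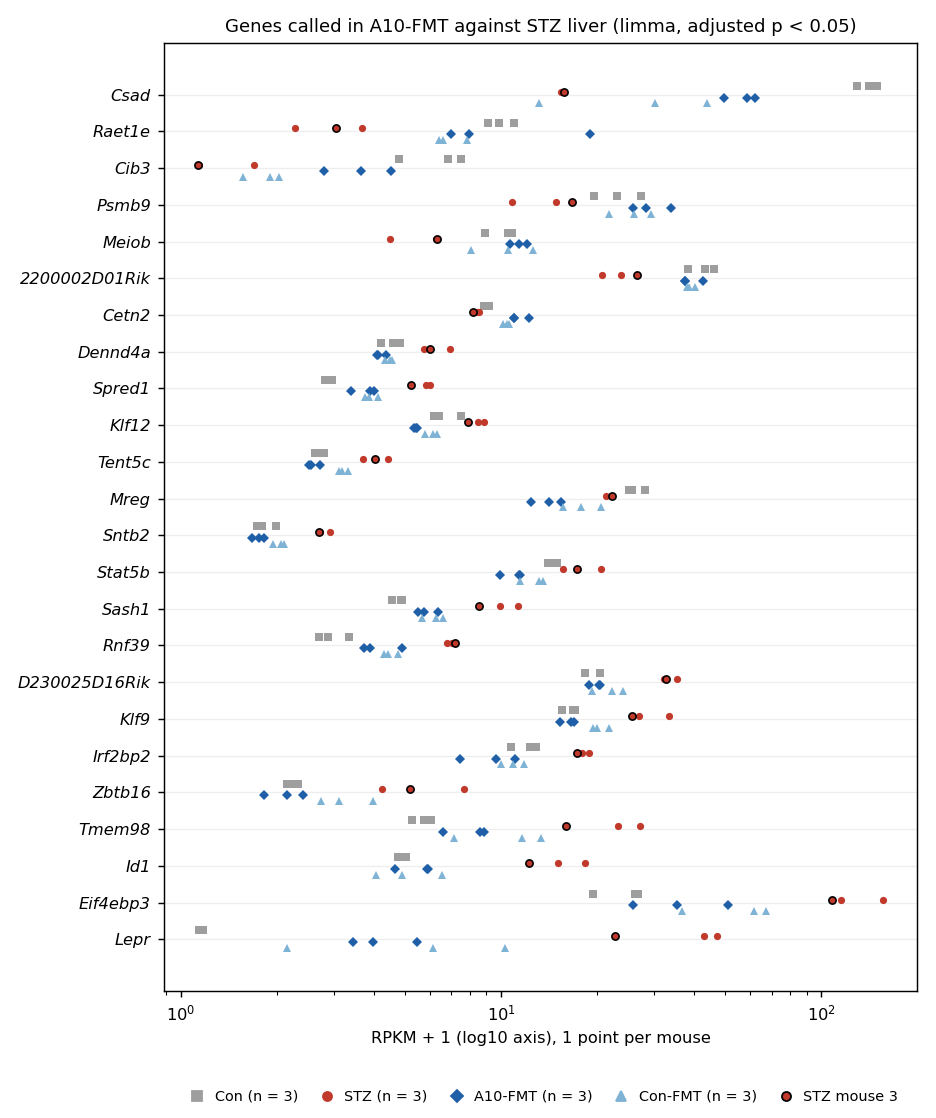
RPKM + 1 on a log10 axis for the 24 genes called in A10-FMT against STZ liver, 1 point per mouse and 3 mice per group, ordered by log2 difference. In every gene the blue A10-FMT points lie on 1 side of the red STZ points, and STZ mouse 3 (black outline) is on the STZ side. The genes were selected for this difference, so the separation follows largely from the selection. At Lepr the A10-FMT mice are at 2.44 to 4.45 RPKM and the STZ mice at 21.7 to 46.3.

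RefSeq promoter windows (GRCm38.p6, 250 bases before the start) were at hand for 19 of the 24 called genes, in 24 windows. Id1, Sntb2, Meiob, Zbtb16 and Eif4ebp3 were without one. 5 short motifs of the pathways above were searched on both strands: GGCGCC (BMP-SMAD), ACANNNTGT (glucocorticoid receptor), TTCNNNGAA (STAT), GAAANNGAA (interferon) and CACGTG (E-box). They occurred in 9.586%, 5.835%, 7.02%, 7.129% and 6.021% of 32851 promoters. Among the 19 genes they occurred in 5, 1, 2, 2 and 1. A gene was counted here if any of its windows had a match, whereas the percentages are shares of single windows. The 2 are therefore not like measures, and enrichment was not tested. The windows of 4 genes with a match are shown, the matched bases in capitals, 5′ to 3′ on the gene's strand, as descriptions of sequence and not of binding. They are at chr19:23140976-23141225 (plus) for Klf9 with a STAT match, chr4:101717157-101717406 (plus) for Lepr with an interferon match on the opposite strand, chr11:100822571-100822820 (minus) for an inner start of Stat5b with a glucocorticoid receptor match, and chr17:34187331-34187580 (minus) for Psmb9 with a BMP-SMAD match.
Klf9: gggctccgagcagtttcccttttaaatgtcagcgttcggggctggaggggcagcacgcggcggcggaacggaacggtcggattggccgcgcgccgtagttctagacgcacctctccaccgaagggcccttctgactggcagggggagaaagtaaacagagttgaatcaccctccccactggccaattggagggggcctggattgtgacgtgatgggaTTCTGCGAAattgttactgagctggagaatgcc
Lepr: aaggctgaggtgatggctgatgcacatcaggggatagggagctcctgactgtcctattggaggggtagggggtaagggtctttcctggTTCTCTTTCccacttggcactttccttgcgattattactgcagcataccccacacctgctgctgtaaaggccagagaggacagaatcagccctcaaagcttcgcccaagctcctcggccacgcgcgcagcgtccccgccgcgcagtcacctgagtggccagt
Stat5b: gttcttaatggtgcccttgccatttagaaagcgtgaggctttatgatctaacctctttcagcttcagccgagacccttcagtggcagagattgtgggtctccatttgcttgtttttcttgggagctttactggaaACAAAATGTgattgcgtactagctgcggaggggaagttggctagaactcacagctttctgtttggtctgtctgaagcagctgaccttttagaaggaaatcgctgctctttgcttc
Psmb9: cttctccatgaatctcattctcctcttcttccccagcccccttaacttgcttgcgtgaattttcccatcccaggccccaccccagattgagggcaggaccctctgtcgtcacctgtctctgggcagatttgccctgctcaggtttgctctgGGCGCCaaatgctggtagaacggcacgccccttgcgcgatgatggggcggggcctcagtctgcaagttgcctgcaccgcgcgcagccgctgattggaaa

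Apart from Lepr, the largest log2 differences were not among the called genes, and the STZ mice were widely spread at most of them. Of the genes whose groups did not overlap, the 6 with the largest positive difference were Car3, Mup21, Cyp4a12a, Mup20, Ces3a and Ces3b, at log2 differences of 3.52 to 5.18 and adjusted p of 0.073 to 0.139. Car3, the carbonic anhydrase abundant in male liver, was at 20, 9.1 and 907 RPKM in STZ and at 1903, 2763 and 1731 in A10-FMT. Ces3a, a carboxylesterase, was at 5.08, 9.34 and 538 in STZ and at 610, 727 and 668 in A10-FMT. In all 6 genes STZ mice 1 and 2 were low and STZ mouse 3 lay between them and the A10-FMT mice. Without that mouse the 6 differences were 5.06 to 7.16, with adjusted p from 7.04e-07 to 0.00867, against up to 0.435 over all 16 alternatives.

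The 6 largest negative differences without overlap were at Sult1e1, Egr1, Lepr, Akr1b7, Igfbp1 and Cyp4a14. Igfbp1, an IGF-binding protein that insulin represses, was at 334, 976 and 190 RPKM in STZ and at 85, 35.8 and 93.6 in A10-FMT (log2 difference −2.57, adjusted p = 0.0603). Sult1e1, the oestrogen sulfotransferase, was at 14.6, 43.1 and 2.71 in STZ and at 0.75, 0.06 and 0.46 in A10-FMT. The fatty acid omega-hydroxylase Cyp4a14 was at 885, 1111 and 409 in STZ and at 102 to 143 in A10-FMT. At these 3 genes STZ mouse 3 was the lowest of its group. Egr1, an immediate-early transcription factor, went the other way, with 20.5, 23.6 and 155 RPKM in STZ and 2.64, 8.83 and 2.09 in A10-FMT (adjusted p = 0.103). Another immediate-early gene, Fos, was at 98 RPKM in STZ mouse 3 and at 84.4 in Con-FMT mouse 2, and at 0.63 to 2.5 in the other STZ and A10-FMT mice. Whether tissue handling has a part in these 2 mice was not tested.

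**Figure D3:**
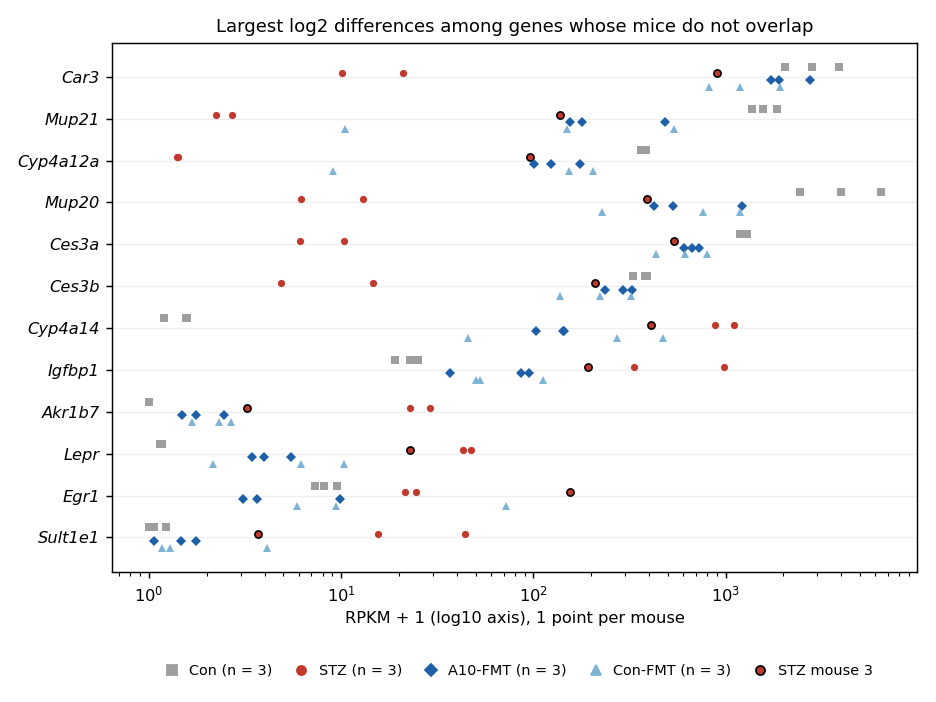
RPKM + 1 on a log10 axis for the 12 genes with the largest log2 differences among those whose A10-FMT and STZ mice do not overlap, 1 point per mouse and 3 mice per group. STZ mouse 3 (black outline) lies next to the A10-FMT mice at Car3, Mup21, Cyp4a12a, Mup20, Ces3a and Ces3b and above the other STZ mice at Egr1.

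The gene lists were chosen with earlier results of these data known, so list counts set beside the shares of all genes are descriptions and not tests. Male-biased genes of the liver had the highest median difference of the gene lists examined. Over 29 members tested the median log2 difference was 2.66, against −0.06 over all genes. None passed the threshold, 7 of the 29 had all A10-FMT mice above all STZ mice, where 7.45% of all genes did, and none was below. Mup1, chosen after its values were seen, was at 45.8, 34.4 and 32146 RPKM in STZ and at 20009, 35673 and 13708 in A10-FMT, so that STZ mouse 3 lay within the A10-FMT range. Mup20 was at 5.17, 12 and 389 in STZ and at 423, 1211 and 533 in A10-FMT. Cyp4a12a, a male-specific cytochrome, was at 0.41, 0.4 and 94.7 in STZ and at 123, 174 and 100 in A10-FMT. Without STZ mouse 3, 23 of 29 passed and all of these were higher, where 3.85% of all genes did, and the median was 4.38. The list summed to 130828 RPKM in that mouse, against 621 and 926 in STZ mice 1 and 2, so leaving it out widens this difference by construction. Without STZ mouse 2 the median was 1.68. The same count of 23 was found without Con mouse 3 in addition, where 2.7% of all genes were higher. Mup genes are near-identical and share reads, so their single levels are uncertain.

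Female-biased genes had the lowest median, −1.32 over 20 members tested. 1 was called and higher, Cib3 (0.0677% of all genes were). 2 had all A10-FMT mice below all STZ mice, where 14.1% of all genes did. These were Sult1e1 and the cytochrome Cyp3a44 (78.5, 5.39 and 6.77 RPKM in STZ against 2.61, 0.82 and 3.02). Cib3 passed the filter only through the A10-FMT mice and another member only through the STZ mice, so these counts do not bear on the list. Without STZ mouse 3, 9 were lower and 1 higher (9.16% and 3.85% of all genes), and without Con mouse 3 as well 7 and 1 (5.91% and 2.7%). Sult2a1, chosen after its values were seen, was at 1460, 333 and 16.1 RPKM in STZ and at 48.3, 0.08 and 2.14 in A10-FMT. A10-FMT mouse 1 thus lay above STZ mouse 3 at this gene. The plot of both lists by mouse shows the same split of the STZ mice.

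**Figure D4:**
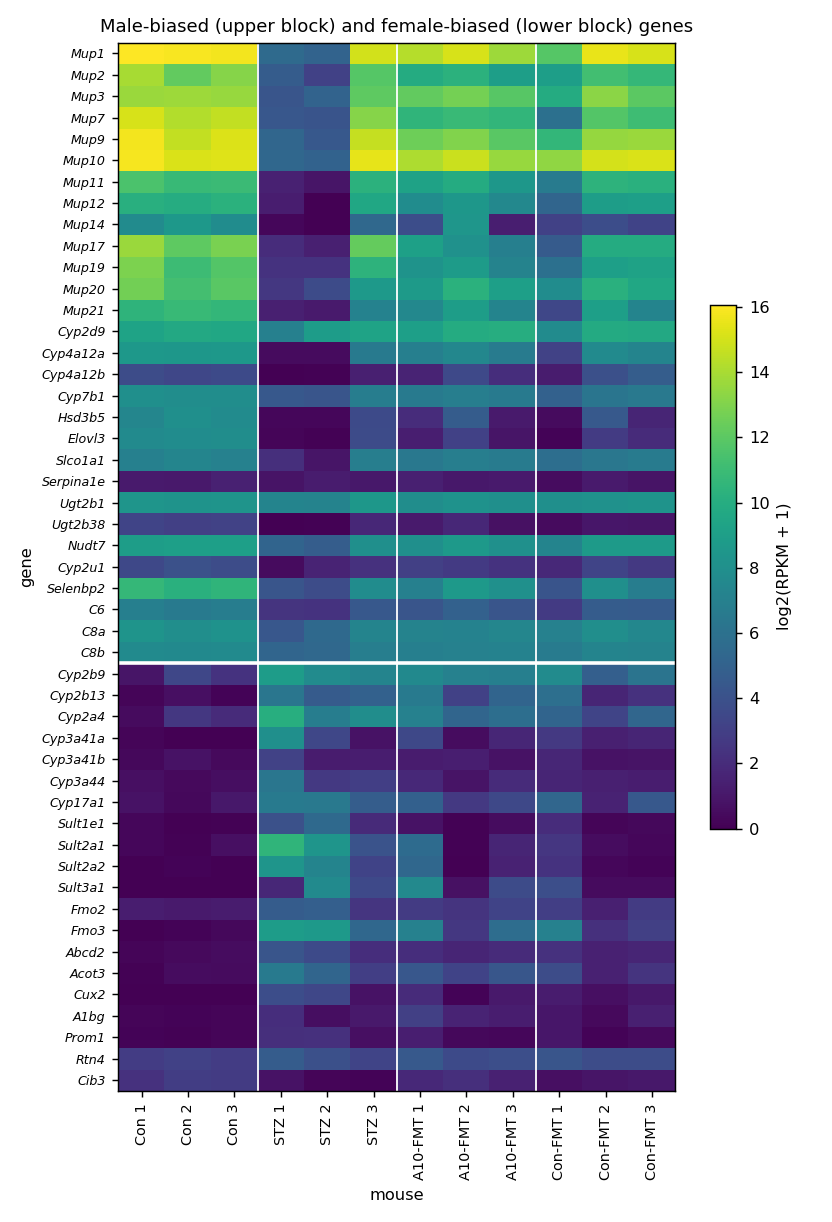
log2(RPKM + 1), as colour, of the male-biased (upper block, 29 genes) and female-biased (lower block, 20 genes) liver genes that were tested, 1 column per mouse and 3 mice per group. Most Mup rows are dark in STZ mice 1 and 2 and bright in STZ mouse 3 and the A10-FMT mice.

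The growth hormone and IGF axis held members on both sides. Of 15 members tested 1 was called, Stat5b (0.232% of all genes were called), 4 lay with all A10-FMT mice above STZ (7.45% of all genes did) and 3 below (14.1%). Those above were the receptor Ghr, Igf1, Igfals and the repressor Bcl6. Ghr was at 96.6, 72.6 and 145 RPKM in STZ and at 179, 201 and 190 in A10-FMT (log2 difference 0.91, adjusted p = 0.0703), and Bcl6 at 2.06, 2.85 and 3.72 against 11.9, 18.2 and 7.04 (adjusted p = 0.0902). Socs2, a STAT5-induced inhibitor of the receptor, lay on the other side at 47.8, 56.9 and 25 in STZ and 15.2, 7.32 and 11.8 in A10-FMT (−1.81, adjusted p = 0.0547), as did Jak2. In the fit without STZ mouse 3, 4 members were higher and 5 lower (3.85% and 9.16% of all genes), 2 and 5 without Con mouse 3 as well, and the median was 0.01 in place of −0.10. With single mice left out it ran down to −0.24, without A10-FMT mouse 3. Of 11 members of the leptin receptor and STAT3 list, Lepr was called and 4 were below STZ in all mice (14.1% of all genes), with a median of −0.38. After STZ mouse 3 was left out, 5 were lower and 1 higher (9.16% and 3.85%) and the median was −0.61, and without STZ mouse 2 it was −0.24. Il6ra, the interleukin-6 receptor, was at 12.5 to 26.1 in STZ and 8.17 to 12.3 in A10-FMT (adjusted p = 0.074).

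The glucocorticoid response genes whose groups did not overlap all lay below STZ. Of 25 tested, 2 were called lower (Klf9 and Zbtb16, against 0.164% of all genes), 10 had all A10-FMT mice below all STZ mice, where 14.1% of all genes did, and none lay above. The median was −0.68. Sgk1, a kinase gene used as a marker of steroid action and chosen after its values were seen, was at 20.9, 42.3 and 20.4 RPKM in STZ and at 10.6, 7.24 and 12.1 in A10-FMT (log2 difference −1.34, adjusted p = 0.0585). Without STZ mouse 3, 10 were lower (9.16% of all genes), and without Con mouse 3 as well 6 (5.91%). 1 member passed the filter only through the STZ mice. Of the 20 genes of gluconeogenesis and insulin restraint 6 lay below STZ (14.1% of all genes did) and none above, with a median of −0.32. The count of lower genes was 6 without STZ mouse 3 (9.16%), and 5 without Con mouse 3 as well. Ppargc1a, a coactivator of fasting genes, was at 4.72, 8.84 and 2.98 in STZ and 1.91, 1.81 and 2.48 in A10-FMT (adjusted p = 0.102). Pck1, which commits carbon to gluconeogenesis, was at 1400 to 2603 in STZ and 1354 to 1743 in A10-FMT (adjusted p = 0.416), with STZ mouse 3 in the A10-FMT range.

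PPAR-alpha targets had a median of −0.73 over 18 tested, with 10 below and 2 above STZ in all mice, where 14.1% and 7.45% of all genes were, and none called. Leaving out STZ mouse 3, 6 were lower and 2 higher (9.16% and 3.85% of all genes), and without Con mouse 3 as well 6 and 1. Acot1, an acyl-CoA thioesterase chosen after its values were seen, was at 30.6, 30 and 48.5 RPKM in STZ and at 7.05, 17.7 and 12.7 in A10-FMT (log2 difference −1.52, adjusted p = 0.0603). The 2 above were Cyp4a12a, which is also male-biased, and the fatty acid-binding protein Fabp1. Mitochondrial fatty acid oxidation and ketone synthesis had 8 of 21 members below (14.1% of all genes) and none above, at a median of −0.23. No member of this list passed without STZ mouse 3 either. Cyp4a10, Cyp4a14 and Cyp4a32 are close copies, so their levels are uncertain.

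Lipid synthesis genes had positive medians. Over 22 genes of fatty acid synthesis and desaturation the median was 0.33, with 3 above, 2 below (7.45% and 14.1% of all genes) and none called. It was 0.18 without STZ mouse 2. With STZ mouse 3 left out 1 was higher and 1 lower (3.85% and 9.16% of all genes). Elovl6, which elongates saturated fatty acids, was at 13.6, 9.3 and 13.3 RPKM in STZ and 16.3, 18.9 and 22.5 in A10-FMT (0.64, adjusted p = 0.0747), and Lpin1, a phosphatidate phosphatase that fasting induces, was at 48.5, 70.3 and 45.5 against 13.1, 20.2 and 27.1 (−1.43, adjusted p = 0.0779). Over 26 cholesterol genes the median was 0.56, but 0.10 without STZ mouse 3 and 0.92 without STZ mouse 1. Of these, 3 members lay above and none below (7.45% and 14.1% of all genes). STZ mouse 3 was the lowest of the 6 at Nsdhl, an enzyme of sterol demethylation, with 22.6 RPKM against 71.4 and 52.9 in the other STZ mice and 78, 85.6 and 94.5 in A10-FMT. The summed level of the list was 1084 RPKM in STZ mouse 3, 2847 and 2005 in the other STZ mice and 2325 to 2827 in A10-FMT.

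Immune genes of hepatocytes and other cells were mixed. Of 24 members of MHC class I presentation and immunoproteasome, 2 were called higher (Psmb9 and Raet1e, against 0.0677% of all genes), and 7 lay above STZ in all mice (7.45% of all genes) and none below. The median was 0.13, and it ran from 0.02 without STZ mouse 2 and 0.03 without STZ mouse 3 to 0.34 without STZ mouse 1. B2m, the light chain of MHC class I, was at 1860 to 2012 RPKM in STZ and 2281 to 2608 in A10-FMT (log2 difference 0.35, adjusted p = 0.211), and H2-Q10, a secreted class I molecule of liver, at 355 to 510 against 619 to 732 (adjusted p = 0.0603). There were 3 higher without STZ mouse 3 and 2 lower (3.85% and 9.16% of all genes), the latter being H2-D1 and the class I activator Nlrc5. Of 43 interferon-stimulated genes 4 lay above and 1 below, a share near that of all genes above (7.45%) and under that below (14.1%). Their median was 0.16, but −0.01 without STZ mouse 2, 0.05 without A10-FMT mouse 1, 0.27 without A10-FMT mouse 2 and 0.40 without STZ mouse 1. The genes called higher without STZ mouse 3 numbered 6 (3.85% of all genes). Complement and coagulation genes had 8 of 35 above and 1 below (7.45% and 14.1% of all genes), with none called, and 7 higher and 2 lower without STZ mouse 3. Without Con mouse 3 as well these were 6 and 2. C8b, a component of the membrane attack complex that is on the male-biased list too, was at 36.1, 43 and 117 RPKM in STZ and 121, 135 and 141 in A10-FMT (adjusted p = 0.1).

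Acute-phase and endotoxin response genes had a median of −0.42 over 30 tested, with 5 below and none above. The 5 are a share near the 14.1% of all genes. Without STZ mouse 2 the median was −0.02, and −0.28 without A10-FMT mouse 2. When STZ mouse 3 was left out 4 were lower (9.16% of all genes). Il1r1, the interleukin-1 receptor, was at 18.6, 40.3 and 14.7 RPKM in STZ and at 6.27, 6.11 and 6.02 in A10-FMT (log2 difference −1.71, adjusted p = 0.0603), and Cd14, a co-receptor of endotoxin, at 11.2, 11.6 and 4.34 against 3.81, 2.49 and 2.75 (adjusted p = 0.225). STZ mouse 2 was the highest of the 6 at both genes. The 13 Kupffer cell and macrophage markers also had a negative median, −0.49, with none called and 2 (Lyz2 and Cd163) below STZ in all mice, a share near the 14.1% of all genes. The median was −0.02 without A10-FMT mouse 2, −0.32 without STZ mouse 2 and −0.76 without A10-FMT mouse 3. Called without STZ mouse 3 were 3, all lower (9.16% of all genes), and 2 without Con mouse 3 as well (5.91%). Their summed level was 358, 451 and 216 RPKM in STZ and 277, 111 and 294 in A10-FMT. Marco, a macrophage scavenger receptor chosen after its values were seen, was at 67.3 RPKM in STZ mouse 2 and at 2.58 in A10-FMT mouse 2, and the part of macrophages in the immune genes was not tested. In bulk liver, fewer cells of a type and less RNA per cell cannot be told apart.

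The 10 sinusoidal endothelial markers summed to 83.1 to 102 RPKM in STZ and 63.6 to 110 in A10-FMT, and the 11 stellate cell markers to 124 to 160 and 123 to 138, so that the groups overlapped. T and NK cell markers summed to 1.77 to 3.52 RPKM in STZ and 2.54 to 5.64 in A10-FMT, with 1 of the 11 in the table tested, and B cell markers to 0.78 to 1.38 and 1.36 to 2.09, with none of 6 tested. Neutrophil markers summed to 1.7 to 4.64 and 1.89 to 4.05, with 1 of 8 tested. The 12 exocrine pancreas markers summed to 3.61 to 8.86 and 9.71 to 10.8, also with 1 tested. Most of this sum was Cela1, at 5.39, 2.96 and 8.73 RPKM in STZ and 8.71, 8.29 and 7.66 in A10-FMT. At Cela1 the groups thus overlapped, and Con livers were higher, at 30.8 to 40.5 RPKM. The other exocrine markers were at most 1.34 RPKM in the 6 livers. Bile duct markers summed to 29.5 to 50.6 and 30.6 to 40.7. Adipocyte markers, of which 3 of 7 were at 0 in all 6 livers, summed to 97 to 157 and 128 to 146. Most of this sum was Adipor2, at 75.7 to 145.2 RPKM in STZ and 112.7 to 130.5 in A10-FMT, and the rest mainly Fabp4. Adipoq and Cfd were at most 0.12 RPKM. Red cell markers were at 614 to 2614 in STZ and 1854 to 3553 in A10-FMT, with a median log2 difference of 1.09 over 6 tested, 1.81 without STZ mouse 3 and 0.58 without STZ mouse 1. None of the 6 was called, and 1 was, as higher, without STZ mouse 3 (3.85% of all genes). The part of blood or pancreas RNA in the results was not tested.

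Genes tied to the study's other readouts, of liver injury, oxidative stress and apoptosis, did not pass the test with all mice. The study measured alanine aminotransferase, superoxide dismutase and catalase in blood, p53 and Bax protein in spleen, and Bax and Bcl-xl protein in liver. The values here are RNA of liver, so they differ from those readouts in molecule and mostly in tissue. Gpt, which encodes alanine aminotransferase, was at 143 to 216 RPKM in STZ and 168 to 182 in A10-FMT (log2 difference −0.06 ± 0.18, adjusted p = 0.866). The superoxide dismutases Sod1, Sod2 and Sod3 had log2 differences of 0.05, −0.07 and 0.14. Catalase, Cat, was at 943, 750 and 1321 in STZ and 1295, 1416 and 1305 in A10-FMT (0.45 ± 0.20, adjusted p = 0.225), with STZ mouse 3 in the A10-FMT range. Of the apoptosis genes Trp53 (0.03), Bax (−0.12) and Bcl2l1 (−0.45), Bcl2l1 had all A10-FMT mice below STZ at 10.9 to 12.9 against 14.1 to 20.3 (adjusted p = 0.133). Cdkn1a, the cell cycle inhibitor and p53 target, was at 9.12, 20 and 37.1 in STZ and at 6.55, 4.49 and 5.23 in A10-FMT (−1.66, adjusted p = 0.0623). Without STZ mouse 3, Cat (0.67, limma adjusted p = 0.0221), Bcl2l1 (−0.57, 0.0281) and Cdkn1a (−1.19, 0.0175) passed, against adjusted p of up to 0.616, 0.426 and 0.24 over 16 alternatives, and the other 6 did not.

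**Figure D5:**
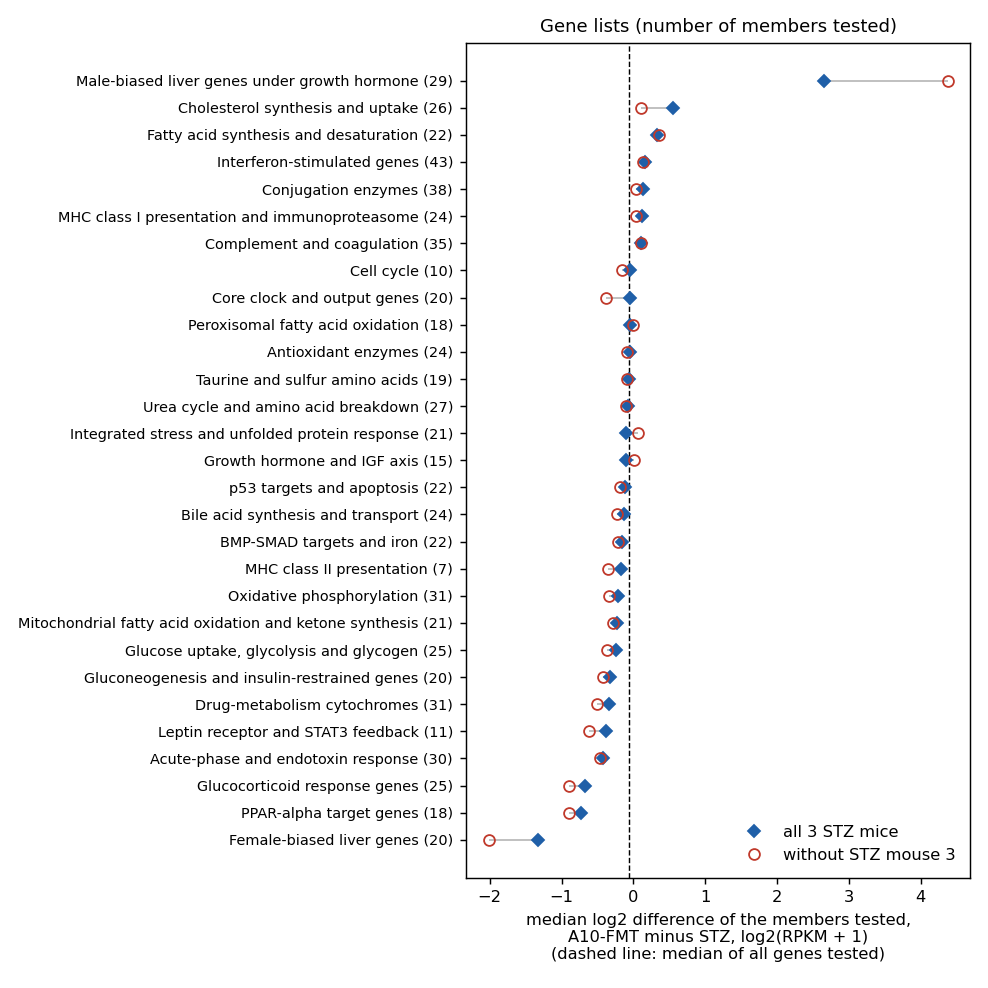
Median log2 difference, A10-FMT minus STZ, of the tested members of each gene list, with all 3 STZ mice (blue diamonds) and without STZ mouse 3 (red circles); the dashed line is the median of all 10345 genes, −0.06, and numbers in brackets give the members tested. Male-biased genes move from 2.66 to 4.38 and female-biased genes from −1.32 to −2.02 when STZ mouse 3 is left out, and cholesterol genes from 0.56 to 0.10.

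Mice given microbiota of undosed donors are the background for a transplant as such. Con-FMT and A10-FMT were both compared with the same STZ mice, so their differences are set side by side and not tested for likeness. Con-FMT against STZ gave 1 gene, Id1 (0.00967%), at 5.54, 3.92 and 3.07 RPKM and a fall of 1.56 (limma adjusted p = 0.0251), beside 1.46 in A10-FMT. Unadjusted p-values below 0.05 numbered 2087 (20.2%). At Lepr the Con-FMT mice were at 9.29, 1.14 and 5.15 RPKM (−2.81, adjusted p = 0.0563, beside −3.09). Csad was at 12.2, 29.3 and 43.1 RPKM in Con-FMT (0.74, adjusted p = 0.227, beside 1.86), and its Con-FMT mice thus ran from the STZ level to just under the A10-FMT level. Cib3 was at 0.56, 0.9 and 1.03 in Con-FMT (0.49, beside 1.47). Csad and Cib3 were picked as called genes with large differences between A10-FMT and Con-FMT. Male-biased and female-biased genes had Con-FMT medians against STZ of 2.365 and −2.09, beside 2.66 and −1.32 in A10-FMT. The Con-FMT mice were not alike here: the male-biased list summed to 19052, 116768 and 99855 RPKM in Con-FMT mice 1, 2 and 3. Glucocorticoid response and gluconeogenesis genes were at −0.608 and −0.325, beside −0.679 and −0.318. For cholesterol genes the Con-FMT median was −0.08, beside 0.56. STZ mouse 3, the lowest STZ mouse in the sum of this list, enters both medians, and without it the A10-FMT median was 0.10. The Con-FMT mice were spread as well, with list sums of 2219, 1305 and 1884 RPKM.

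A10-FMT and Con-FMT mice were then compared directly. Donor material was pooled within each donor group, so this compares recipients of different pools. It cannot separate AOS dosing of the donors from other differences between the pools. None of the 24 genes differed at an adjusted p under 0.05 (limma, lowest adjusted p 0.999), nor did any gene of 10345. Unadjusted p-values below 0.05 were found for 7 of the 24 and for 290 genes in all (2.8%). The 24 had been chosen with the A10-FMT mice that also enter this comparison. The 7 genes were Csad, Cib3, Mreg, Zbtb16, Klf9, Tent5c and Sntb2. At Csad the log2 difference between A10-FMT and Con-FMT was 1.12 ± 0.32, at Cib3 0.98 ± 0.22 and at Klf9 −0.33 ± 0.11 (SE), whereas at Id1 it was 0.10 ± 0.18.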

How the data were processed

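Polyadenylated RNA of whole liver was sequenced, and the authors deposited RPKM values per gene symbol: reads per kilobase of transcript, scaled to the mapped reads of each library, from their own alignment. The labels list Bowtie 0.12.2 and the mouse build mm10, whereas the methods of the study name SOAPaligner. Read counts and strand were not used here, so absolute depth is unknown, and relative depth was estimated from whole steps in 47 of 146 low genes. The library kit described does not mark strand.

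Genes with at least 1 RPKM in 3 of the 6 libraries were fitted as log2(RPKM + 1) with limma 3.58.1 (trend, R 4.3.3) on 12 libraries of 4 groups. A fold change is therefore on the log2(RPKM + 1) scale and understates low genes. P-values were adjusted over 10345 genes. The genes compared and the 40 gene lists were chosen with earlier results of these data known. Named genes were all called genes, the 6 largest differences without overlap in each direction, and for each list its called members and the 2 largest without overlap. The rule also took genes of proteins of liver injury, oxidative stress and apoptosis that the study measured in blood, spleen or liver. Genes named beyond this rule were chosen after their values were seen. Gene positions are from GENCODE M21 (GRCm38), to which 10246 of the 10345 symbols matched. 3 symbols occur more than once, and 26 look like dates. On simulated data of 10345 genes, 200 of them changed by a log2 of 2, the fit recovered 198, with 15 false calls among the unchanged genes. The simulation drew independent values with the same spread of a gene in every group. The STZ mice were more widely spread, so it does not show how the fit fares on these data. Alternatives covered libraries, scaling, pseudocount, filter, trend, weights and left-out mice.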

Additional observations from a re-analysis of the deposited data

How the results depend on the processing

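The number of genes called in A10-FMT against STZ was 24, and it was 26 with a pseudocount of 0.1, 25 with 1 RPKM required in each of the 6 libraries, and 18 without the trend. It was 1 with only the 6 libraries, 53 with all 18 libraries (15 shared with the 24), 105 with median-ratio scaling (24 shared), 55 with quantile normalization (22 shared), and 2 of 17912 without a filter on low values. Array weights gave 799, but their estimation stopped before it converged. The authors' limits, set on the limma values and not on those of their own test, gave 0. Leaving out single mice gave between 0 and 1346 genes: 138, 0 and 1346 without STZ mouse 1, 2 or 3, 2, 0 and 0 without A10-FMT mouse 1, 2 or 3, and, chosen after seeing the data, 37, 26 and 21 without Con-FMT mouse 1, 2 or 3 and 9, 13 and 0 without Con mouse 1, 2 or 3. Without any Con library the count was 0 (1815 unadjusted), and without Con mouse 3 and STZ mouse 3 it was 890; the cause was not tested.

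With the replicate number as a block 26 genes were called, 17 of them shared; the numbers did not pair the samples (correlations of same-numbered mice of 0.0113, −0.254 and −0.2). The count of 0 for A10-FMT against Con-FMT among the 24 genes stayed at 0 under every alternative run. Of the named genes, 4 with differences near 0, none of them called, changed sign: Gpt (0.0054 with median-ratio scaling, −0.24 to 0.054 with single mice left out), Sod1 (−0.063 to 0.165), Sod3 (−0.096 to 0.286) and Trp53 (−0.12 to 0.118).

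With 3 mice in each group, a spread that differs between STZ and the other groups, and unknown absolute depth, genes at a few RPKM were measured least precisely.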

Other observations

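Oxidative phosphorylation genes had 6 of 31 members below STZ in all A10-FMT mice, a share not far from the 14.1% of all genes, and none above. Their median was −0.21, and −0.12 without STZ mouse 1, −0.14 without STZ mouse 2 and −0.33 without STZ mouse 3. Atp5b, a subunit of ATP synthase, was at 1355, 1351 and 979 RPKM in STZ and at 895, 818 and 952 in A10-FMT (log2 difference −0.45, adjusted p = 0.224). None of the 31 was called, 3 were lower without STZ mouse 3 (9.16% of all genes), and 0 without Con mouse 3 as well.

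Of 22 BMP-SMAD and iron genes 4 lay below STZ in all mice and 2 above (14.1% and 7.45% of all genes). Without STZ mouse 3, 5 were lower with Con mouse 3 kept and 5 without it (9.16% and 5.91% of all genes). Smad9, a receptor-regulated SMAD, was at 7.16, 6.18 and 4.23 RPKM in STZ and at 1.41, 2.27 and 3.42 in A10-FMT (log2 difference −1.05, adjusted p = 0.0612), and Hamp, the iron hormone hepcidin and a BMP target, was at 3188 to 7089 and 4765 to 7861 (adjusted p = 0.568).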
